A study of Mus musculus with 4 samples.

Results

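The Hox genes and 3 further developmental transcription factor genes that differ between fat depots (Tbx15, Shox2 and En1) were followed across 4 arrays of mouse white adipose tissue. The members were all probes whose symbol in the platform annotation is Hoxa, Hoxb, Hoxc or Hoxd followed by a number, plus those of the 3 other genes. They came to 66 of 45281 probes and 42 of 19057 named genes, of which 38 were Hox protein genes and 1 was Hoxd3os1, an antisense transcript. All mice were female C57BL/6, a common inbred line, and 9 months old. Mice of the F0, F1 and F2 generations ate a high fat diet in which fat supplied 60% of energy, and the controls ate normal chow. Both diets lasted 9 months by the labels. Each group was a single array of mixed RNA, of 4 samples for each of the 3 high fat generations and of 3 for chow, and the labels name neither the animals behind the mix nor the fat depot that was dissected. The question was whether the 4 mixes look like the same depot.

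Hox genes encode homeodomain transcription factors that lie in clusters and are switched on along the body axis in the order of their place in the cluster. Members at the same place in different clusters form paralog groups, numbered 1 to 13, of which the low numbers act towards the head and the high numbers towards the tail. Adult stromal cells and fat cell precursors keep the Hox pattern of the region they come from, so different fat depots carry different sets. In mice Tbx15, Shox2, En1 and Hoxc9 are known to be higher in subcutaneous fat, and Hoxa5, Hoxc8, Tcf21, Thbd and Gpc4 higher in intra-abdominal fat.

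Values are log2 signals after background correction and quantile normalization, with detection p-values below 0.01 taken as detected. The lowest detected signal was 4.89 on the F0 array, 4.94 on F1, 4.77 on F2 and 4.82 on chow, and 37.8 to 40.9% of all probes were detected on an array. Of the 42 genes, 22 were detected on at least 1 array, beside 11384 of all 19057 named genes. By array 18 were detected on F0, 19 on F1, 18 on F2 and 20 on chow. Each group being 1 array, no difference can be checked against replicates, and precision is limited by there being only 4 arrays. A gene counted as different between a pair of arrays at 2-fold or more, if it was detected on the brighter array. The SD between probes of the same gene, 0.305 for F0 against chow, 0.290 for F1 and 0.314 for F2 on the log2 scale, was the only technical gauge.

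The adipose label was checked against adipocyte markers, of which all 11 measured genes were detected on all 4 arrays. Adipoq, the adiponectin gene, lay at 13.68 on F0, 13.49 on F1 and 13.17 on F2, against 13.64 on chow.

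Of the 22 genes detected on at least 1 array, 16 were detected on all 4. Among all 11384 genes detected on at least 1 array, 9041 were. The 16 held Hoxa5, Hoxa7 and Hoxa13 of the cluster on chromosome 6, and Hoxb2 and Hoxb4 to Hoxb7 on chromosome 11. They also held Hoxc6, Hoxc9 and Hoxc10 on chromosome 15, and Hoxd3, Hoxd4 and Hoxd8 to Hoxd10 on chromosome 2. Within the Hoxd cluster the detected genes stood next to each other, with Hoxd11, Hoxd12 and Hoxd13 on the tail side and Hoxd1 on the head side detected on no array. By paralog group, 7 of 11 measured genes of groups 1 to 4, 8 of 11 of groups 5 to 8 and 6 of 16 of groups 9 to 13 were detected on at least 1 array. Of groups 11 to 13 the 1 gene detected on any array was Hoxa13, a gene of the distal limb and genital tract, whose signals lay close to the lowest detected one.

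**Figure D1:**
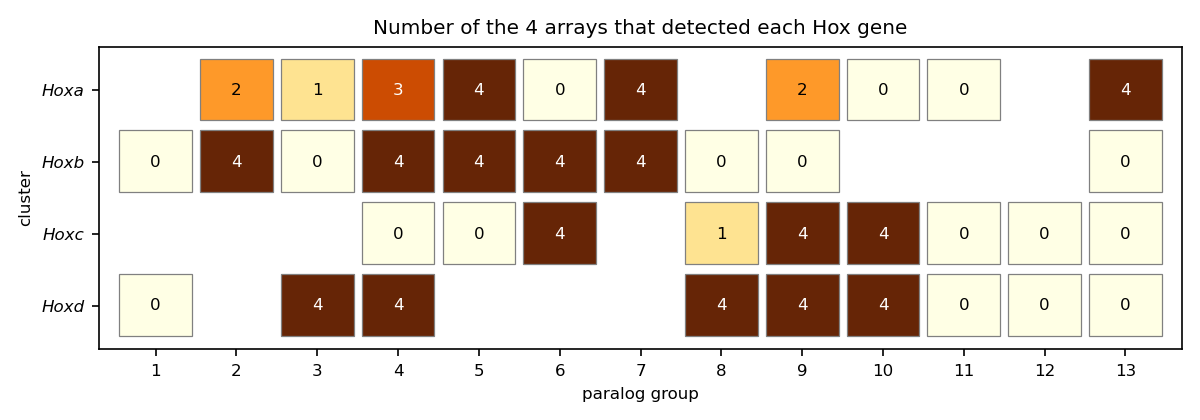
Number of the 4 arrays (0 to 4, printed in each cell and shown by colour) on which a Hox gene was detected by at least 1 probe at a detection p-value below 0.01. Rows are the 4 clusters, columns the paralog groups 1 to 13, and an empty place holds no measured gene; 16 cells reach 4.

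Among the depot genes outside the clusters, Tbx15, a T-box factor, and Shox2, a homeodomain factor of the proximal limb, were detected on none of the 4 arrays by any of their 2 and 3 probes. En1, the engrailed homeodomain factor, was detected on the F0 and F1 arrays by 1 of its 2 probes. That probe lay at 5.24 on F0, 5.34 on F1 and 4.68 on F2, against 4.45 on chow, and it was not detected on F2 and chow. With undetected signals set to the lowest detected signal, En1 was at least 1.33-fold higher on F0 and at least 1.43-fold on F1 than on chow. Hoxc8, a gene of the thoracic region, was detected on the F2 array alone, at 4.36 on F0, 4.41 on F1 and 4.85 on F2, against 4.57 on chow. The 20 genes detected on no array were Hoxa6, Hoxa10, Hoxa11, Hoxb1, Hoxb3, Hoxb8, Hoxb9, Hoxb13, Hoxc4, Hoxc5, Hoxc11, Hoxc12, Hoxc13, Hoxd1, Hoxd3os1, Hoxd11, Hoxd12, Hoxd13, Shox2 and Tbx15, with signals from 4.15 to 4.90. At this sensitivity a low level of these genes was not detectable, which is not the same as absence.

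Against chow, the detected Hox genes were lower on the high fat arrays in nearly every case. Over the 16 genes detected on all 4 arrays the median log2 difference from chow was -0.69 for F0, -0.70 for F1 and -1.22 for F2, beside medians of 0.00, -0.02 and -0.11 over 9041 genes detected on all 4. The chow array lay above all 3 high fat arrays for 15 of the 16, where 39.1% of the 9041 genes did so, and Hoxa13 was the exception. Of the 22 genes detected anywhere, 4 were at least 2-fold lower on F0, 4 on F1 and 10 on F2, and 0 were at least 2-fold higher. Among the 11384 genes tested, 6.65% were lower by this size on F0, 6.31% on F1 and 8.24% on F2, and 6.69%, 7.38% and 9.35% were higher. The counts for F0 and F1 changed with the processing, to 1 and 2 genes without background correction, and to 8 for F0 with median scaling and for F1 with the authors' value table. At 1.5-fold the lower members were 13 on F0, 13 on F1 and 18 on F2, beside 15.3%, 14.8% and 19.4% of all genes. En1 was the 1 member higher by this size on F0 and on F1, and 0 members were on F2. The shares of all genes were 15.0%, 15.5% and 16.6%. En1 passed the detection filter through F0 and F1 alone, so the filter largely set its direction. With the undetected chow signal set to the lowest detected one, its folds were 1.33 on F0 and 1.43 on F1, under this size. Among the 22 genes chow was above all 3 high fat arrays for 19 (38.6% of all genes tested) and below all 3 for En1 (31.9%). Hoxa3 and the Hoxa9 probe used were detected on chow alone, so the filter largely set this order for them. Both are also among the lower members at 1.5-fold on each high fat array. In bulk tissue fewer cells of a type and less RNA per cell cannot be told apart.

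**Figure D2:**
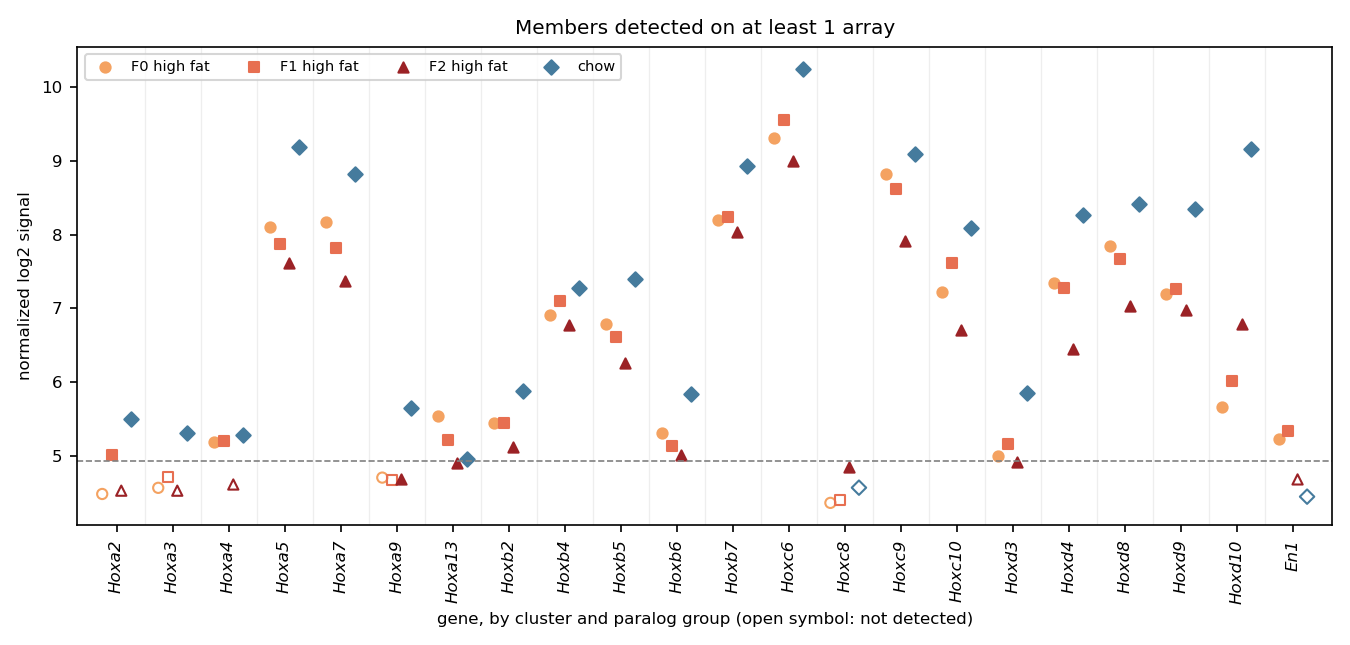
Normalized log2 signal of the 22 genes detected on at least 1 array, with a symbol for each of the F0, F1 and F2 high fat arrays and the chow array. Open symbols mark genes that no probe detected on that array, and the dashed line is the highest of the arrays' lowest detected signals (4.94); the chow symbol stands above the 3 others in 19 of the 22 genes.

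The central genes, of paralog groups 5 to 8, pattern the thorax. Hoxa5, which patterns the neck and upper thorax, lay at 8.10 on F0, 7.88 on F1 and 7.61 on F2, against 9.18 on chow, and was 2.12-fold, 2.47-fold and 2.97-fold lower. Hoxa7, a thoracic gene, lay at 8.17 on F0, 7.82 on F1 and 7.38 on F2, against 8.82 on chow. Both genes were thus lowest on the F2 array, and neither overlapped with chow. Hoxb5, a gene of neural crest and blood stem cells, lay at 6.79, 6.61 and 6.25 on the F0, F1 and F2 arrays, against 7.39 on chow. Hoxb6, a lateral plate mesoderm gene, lay at 5.31, 5.14 and 5.02 on the F0, F1 and F2 arrays, against 5.84 on chow. Hoxb7, a gene of trunk mesoderm, differed least among the high fat arrays of these genes, with 8.20 on F0, 8.24 on F1 and 8.03 on F2, against 8.93 on chow, and its second probe gave differences of -0.85, -0.65 and -0.92. Hoxc6, which marks the thoracic region, lay at 9.31 on F0, 9.55 on F1 and 9.00 on F2, against 10.25 on chow. Hoxd8, the group 8 gene of the Hoxd cluster, lay at 7.84 on F0, 7.67 on F1 and 7.04 on F2, against 8.42 on chow. All 7 genes of groups 5 to 8 detected on all 4 arrays were below chow on each high fat array, by 0.53 to 1.08 on the log2 scale on F0, 0.70 to 1.30 on F1 and 0.82 to 1.57 on F2. Chow was above all 3 high fat arrays for 39.1% of the 9041 genes detected on all 4.

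The head-side genes, of groups 1 to 4, had medians of -0.64 on F0, -0.56 on F1 and -0.84 on F2 over the 4 detected on all arrays, beside -0.66, -0.76 and -1.24 over the 7 of groups 5 to 8. Hoxb2, a hindbrain gene, lay at 5.45 on F0, 5.45 on F1 and 5.12 on F2, against 5.88 on chow. Hoxb4, best known from blood stem cells, was lower on each high fat array, with 6.91 on F0, 7.10 on F1 and 6.78 on F2, against 7.27 on chow; its F1 difference of -0.17 was within the SD between probes. Hoxd3, which patterns the first neck vertebrae, lay at 5.0, 5.16 and 4.92 on the F0, F1 and F2 arrays, against 5.85 on chow. Hoxd4, a gene of the neck vertebrae, stood out on F2, with 7.35 on F0, 7.28 on F1 and 6.45 on F2, against 8.26 on chow, and was 3.53-fold lower there. The remaining head-side genes belong to the Hoxa cluster and were weak. Hoxa2, the selector gene of the second pharyngeal arch, lay at 4.49 on F0, 5.01 on F1 and 4.53 on F2, against 5.50 on chow, and was detected on F1 and chow. Its F0 difference of -1.02 was one of the 4 counted above, but was -0.45 by its second probe and at least 1.52-fold with the undetected F0 signal set to the lowest detected one. Hoxa3, a gene of the third arch and the thymus, was detected on chow alone, at 4.57, 4.72 and 4.53 on the F0, F1 and F2 arrays, against 5.31 on chow. This value came from 1 of its 4 probes, which matches a cDNA clone rather than the reference transcript, and the 3 others were detected on no array. Hoxa4, a gene of the neck vertebrae, lay at 5.19 on F0, 5.21 on F1 and 4.61 on F2, against 5.29 on chow, and was detected on all but the F2 array.

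**Figure D3:**
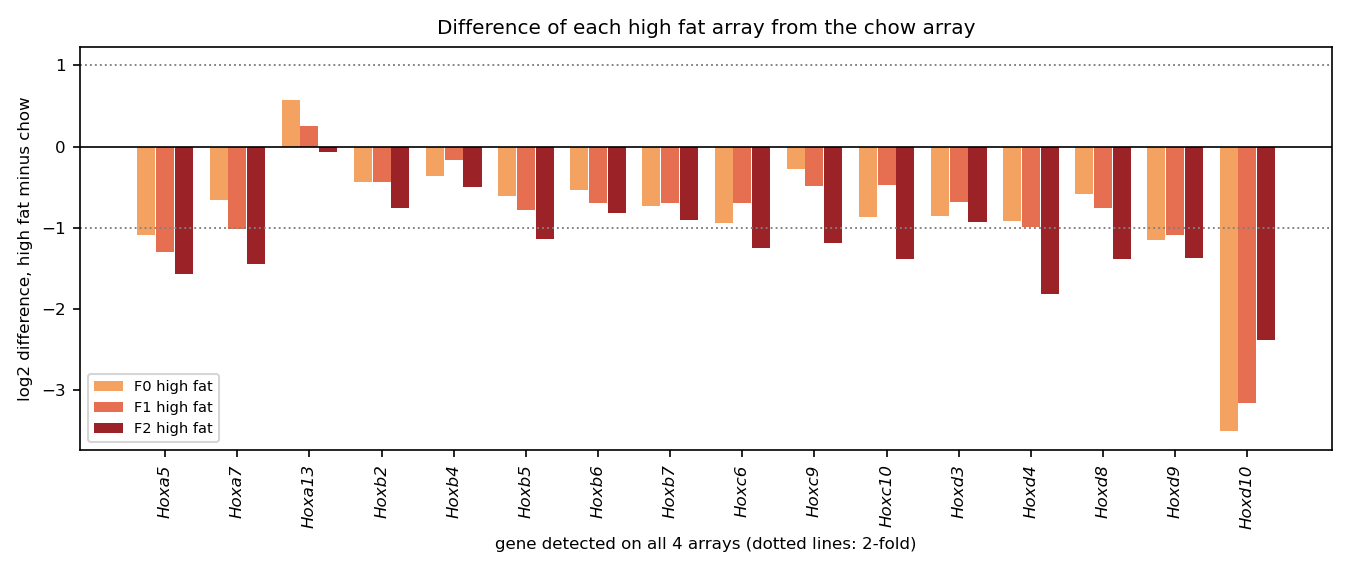
Log2 difference of the F0, F1 and F2 high fat arrays from the chow array for the 16 genes detected on all 4 arrays, ordered by cluster and paralog group. Bars start at 0, negative bars are lower than chow and dotted lines mark 2-fold; there is no error bar because each group is 1 array. Hoxd10 reaches -3.50 on F0, and the bars of Hoxa13 for F0 and F1 are the only positive ones.

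Among the tail-side genes, of groups 9 to 13, Hoxd10 stood apart. This gene of the lumbar region and hindlimb had deposited intensities of 91.3 on F0, 103 on F1 and 156 on F2, against 632 on chow, all detected. Its log2 signal was 5.66 on F0, 6.01 on F1 and 6.79 on F2, against 9.16 on chow, which is 11.3-fold, 8.90-fold and 5.20-fold lower. Of the 9041 genes detected on all arrays, 14 had a larger decrease than Hoxd10 on F0, 21 on F1 and 58 on F2. It was also the 1 detected-on-all member that ran upwards over the generations: F2 was 2.18-fold above F0 for Hoxd10, whereas the 15 others were lower on F2 than on F0, as were 57.3% of the 9041 genes. At least 2-fold higher on F2 than on F0 were 4.62% of all genes. Hoxd10 has 1 probe on this array, so no second probe gauges these values.

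Its neighbour Hoxd9, a gene of the lower trunk, lay at 7.20 on F0, 7.26 on F1 and 6.98 on F2, against 8.35 on chow. The second Hoxd9 probe gave differences from chow of -1.23, -1.31 and -1.47, against -1.15, -1.09 and -1.37 by the first. Hoxa9, which acts in blood progenitors as well as in the trunk, had near-equal high fat signals of 4.71, 4.67 and 4.69, against 5.66 on chow, and was detected by any probe on F2 and chow. Hoxc9, known in mice from subcutaneous and beige fat, lay at 8.82 on F0, 8.62 on F1 and 7.91 on F2, against 9.10 on chow. Its F0 difference of -0.28 was within the SD between probes, while the F2 difference was -1.19. Hoxc10, a lumbar gene also known from subcutaneous fat, lay at 7.22 on F0, 7.61 on F1 and 6.70 on F2, against 8.09 on chow, with differences of -0.36, -0.37 and -0.94 by its second probe. Hoxa13 lay at 5.54 on F0, 5.22 on F1 and 4.90 on F2, against 4.96 on chow, by 1 of its 3 probes. Another probe, detected on chow alone, gave differences of -0.03, -0.03 and -0.37, and the remaining probe was detected on no array. The positive sign of Hoxa13 for F0 and F1 thus rests on a single probe. Among the members known as depot genes in mice, Hoxa5 and Hoxc9 lay below chow on each high fat array. En1 and Hoxc8 lay near the detection limit. By 1 of its 2 probes En1 was at least 1.33-fold above chow on F0 and 1.43-fold on F1, and neither F2 nor chow detected it. Hoxc8, detected on F2 alone, was at least 1.02-fold above chow there, which gives no clear direction.

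Of the 5 Hoxd genes detected on all arrays, 4 had the hexamer AGGTCA, a core element bound by nuclear receptors, in the 250 bases before the start of the gene in RefSeq (build GRCm38.p6). The 5 upstream stretches are shown because they belong to neighbouring genes that include Hoxd10, the member with the largest differences. Being below chow on every high fat array was not particular to them, since all 5 Hoxb and all 3 Hoxc genes detected on 4 arrays were too. They run 5′ to 3′ in the direction of the gene, and capitals mark AGGTCA or its reverse complement TGACCT.
Hoxd10 (chr2:74691641-74691890, plus strand): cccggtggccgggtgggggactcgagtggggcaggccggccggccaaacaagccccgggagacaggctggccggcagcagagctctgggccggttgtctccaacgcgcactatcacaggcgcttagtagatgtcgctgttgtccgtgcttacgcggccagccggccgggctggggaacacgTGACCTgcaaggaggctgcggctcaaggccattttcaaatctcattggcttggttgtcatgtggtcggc
Hoxd9 (chr2:74697513-74697762, plus strand): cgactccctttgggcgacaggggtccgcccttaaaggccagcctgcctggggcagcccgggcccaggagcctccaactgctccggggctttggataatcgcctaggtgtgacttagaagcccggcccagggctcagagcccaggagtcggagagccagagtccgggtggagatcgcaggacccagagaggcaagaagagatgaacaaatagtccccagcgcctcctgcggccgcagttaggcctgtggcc
Hoxd8 (chr2:74704365-74704614, plus strand): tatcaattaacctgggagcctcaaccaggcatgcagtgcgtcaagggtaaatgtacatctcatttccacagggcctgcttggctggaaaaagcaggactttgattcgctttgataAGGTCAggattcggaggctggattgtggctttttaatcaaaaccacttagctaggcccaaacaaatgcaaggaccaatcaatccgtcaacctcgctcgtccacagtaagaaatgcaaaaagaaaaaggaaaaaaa
Hoxd3 (chr2:74711743-74711992, plus strand): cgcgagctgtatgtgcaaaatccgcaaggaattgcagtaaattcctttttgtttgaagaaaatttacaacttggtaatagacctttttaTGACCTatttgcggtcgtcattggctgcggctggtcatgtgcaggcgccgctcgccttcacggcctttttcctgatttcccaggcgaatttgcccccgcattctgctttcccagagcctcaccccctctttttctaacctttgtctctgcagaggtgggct
Hoxd4 (chr2:74721728-74721977, plus strand): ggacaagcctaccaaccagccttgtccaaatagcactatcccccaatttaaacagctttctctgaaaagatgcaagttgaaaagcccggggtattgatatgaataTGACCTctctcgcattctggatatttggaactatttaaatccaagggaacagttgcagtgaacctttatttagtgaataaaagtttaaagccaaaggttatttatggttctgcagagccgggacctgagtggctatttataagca
The match lay in Hoxd10, Hoxd8, Hoxd3 and Hoxd4 and not in Hoxd9, whose signal was lower too. Of 32851 RefSeq promoter windows of this length, 4607 held AGGTCA on either strand. Upstream sequence was matched for 25 of the 42 genes, in 27 windows, of which 6 held AGGTCA; Hoxb4 was the other such gene detected on all 4 arrays. TGATNNAT, the composite site of Pbx and Hox proteins, stood in 4 of the 27 windows and in 7.68% of all windows, and TAATTA, a homeodomain core site, in 2 of the 27 and in 4.84% of all. Neither of these motifs stood in a matched window of a gene detected on all 4 arrays, so no motif overlaps another in the printed stretches. Hoxd10 held 20 CG dinucleotides and Hoxd4 3, beside a median of 6 over all windows. A match is a description of the letters and not a binding site.

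In a fit of all 3 high fat arrays against the 1 chow array, limma called 2 of the 22 detected genes, Hoxd10 and Hoxd9, as fallen. Hoxd10 fell by 3.01 ± 0.47 and Hoxd9 by 1.20 ± 0.22 (log2, limma's SE; limma, adjusted p = 0.0339 and 0.0483 over 11384 genes), with 3 of 3 high fat arrays below chow for each. Over all genes 3.41% fell and 2.90% rose by the same rule, and 0 of the 22 members rose. Hoxa5 missed the threshold, with a difference of -1.32 ± 0.25 (limma, adjusted p = 0.0515), as did Hoxa9 at -0.97 ± 0.20 (limma, adjusted p = 0.0597) and Hoxb7 at -0.78 ± 0.19 (limma, adjusted p = 0.0861). Before adjustment 13 of the 22 had a limma p-value below 0.05, all of them below chow, beside 13.8% of all 11384 genes that were lower at that level. Among these members, Hoxa3 and the Hoxa9 probe used were detected on chow alone, so the filter largely set their direction. The fit has 2 residual degrees of freedom, chow contributes no spread, and nothing says that the generations are replicates. Its calls rest on single arrays: without F1 0 members and 1 gene in all were called, and without F2 11 members fell and En1 rose, while 14.1% of all genes fell. With the authors' value table neither gene passed (limma, adjusted p = 0.133 for Hoxd10 and 0.0808 for Hoxd9). Over the 11 alternatives the adjusted p of limma ran from 0.000308 to 0.133 for Hoxd10 and from 0.00418 to 0.235 for Hoxd9. Hoxd10 was called in 9 of the 11 and Hoxd9 in 6; Hoxa5 was called in 7, with an adjusted p of limma from 0.00314 to 0.227.

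Across the generations, F1 resembled F0 and F2 lay lowest. For F1 against F0, 0 of the 22 genes were at least 2-fold apart and the differences of the 16 genes detected on all arrays ran from -0.35 to 0.39 with a median of -0.03; the 2-fold shares of all genes were 0.835% higher and 0.0703% lower. For F2 against F1 0 members were 2-fold apart, but 15 of the 16 were lower on F2, as were 60.0% of the 9041 genes, with a median of -0.33 beside -0.08; the 2-fold shares of all genes were 3.09% higher and 0.799% lower. At 1.5-fold Hoxd10 was higher (6.94% of all genes) and 6 members were lower (7.65%). For F2 against F0 the median was -0.41 beside -0.08, with Hoxd10 as the 1 member at least 2-fold apart; 2.53% of all genes were lower by this size. At 1.5-fold Hoxd10 was higher (10.9% of all genes) and 5 members were lower (12.1%). The F2 array was the lowest of the 3 for 15 of the 16, where 51.3% of the 9041 genes were lowest on F2. The order F0 above F1 above F2 held for 9 of the 16 and for 33.6% of the 9041, and the opposite order for Hoxd10 alone, and for 22.9%. Adipocyte markers were lower on F2 too, with a median over 11 genes of -0.56 for F2 against F1 and -0.70 for F2 against F0. Endothelial markers were lower as well, with medians over 8 genes of -0.53 and -0.60. Stromal progenitor markers were split, with medians over 11 genes of 0.03 and 0.26. Against F1 their differences on F2 ran from -0.75 for Pdgfrb to 0.90 for Dlk1. Lymph node and B cell markers were higher on F2, by a median of 3.97 over 7 genes against F1 and 4.20 against F0, with a summed signal of 511 on F0, 581 on F1 and 10667 on F2, against 3795 on chow. The chow sum is mostly Ccl21a, a lymphatic chemokine gene, at 5.40 on F0, 6.26 on F1 and 10.44 on F2, against 11.74 on chow, while Cd79b, a B cell receptor gene, lay at 7.11, 7.01 and 10.99, against 6.24. T cell markers had medians over 8 genes of 2.64 for F2 against F1 and 2.48 against F0. The part of these cell types in the lower Hox signals was not tested.

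The profile of the 16 genes from array to array can be given as a correlation of their log2 signals, as a description of 16 points that share probes and arrays. Pearson's r was 0.985 for the F0 and F1 pair, 0.932 for F0 with F2, and 0.960 for F1 with F2. With chow it was 0.84 on F0, 0.879 on F1 and 0.946 on F2. Leaving out Hoxd10 gave 0.967, 0.972 and 0.967 with chow, and 0.987, 0.978 and 0.986 for the high fat pairs in the order above. Over all 11384 genes r was 0.989, 0.957 and 0.972 for the high fat pairs, and 0.934, 0.929 and 0.908 with chow. A correlation does not register a shift in level that the genes share. By this measure the Hox pattern of chow differed from that of the high fat arrays in Hoxd10 more than in the rest.

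Other genes that distinguish depots were read beside the Hox genes. Of 7 intra-abdominal genes measured, 6 were detected on chow, 4 on F0, 4 on F1 and 5 on F2. Tcf21, a factor of visceral fat precursors, lay at 6.47 on F0, 6.74 on F1 and 6.85 on F2, against 8.40 on chow. Gata6, a factor of visceral mesoderm, lay at 7.76, 7.71 and 7.67 on the F0, F1 and F2 arrays, against 9.66 on chow. Isl1, a homeodomain factor of visceral fat precursors, was detected on chow alone, at 4.38, 4.90 and 4.77 on the high fat arrays and 7.83 on chow, and so at least 7.66-fold, 7.42-fold and 8.35-fold lower. Thbd, thrombomodulin, lay at 7.29 on F0, 7.77 on F1 and 7.64 on F2, against 9.09 on chow, and Bnc1, a mesothelial zinc finger gene, at 4.54, 4.45 and 4.79, against 7.23. These 5 genes fell by limma over the 3 high fat arrays (limma, adjusted p from 0.0146 to 0.0403), and the sixth, the glypican gene Gpc4, lay at 6.21, 6.05 and 5.44, against 5.90 on chow. All but Bnc1 and Isl1 were detected on all 4 arrays. Isl1 passed the detection filter through chow alone, so its direction was largely set by the filter, and Bnc1 was detected on F2 and chow alone.

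Of 8 subcutaneous genes measured in addition to the members, 4 were detected, each on all 4 arrays, and 0 passed limma's adjusted threshold. Irx3, an Iroquois homeodomain factor, went against the Hox genes, with 8.57 on F0, 8.17 on F1 and 7.42 on F2, against 6.73 on chow. Sfrp2, a secreted Wnt modulator, lay at 5.14 on F0, 5.52 on F1 and 5.27 on F2, against 6.16 on chow. The mesenchymal factors Twist1 and Prrx1 lay within 0.59 of chow on each high fat array. The 4 others, Irx5, Irx1, Irx2 and Tbx18, were not detected.

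TALE homeodomain proteins bind DNA together with Hox proteins. Their genes had median differences from chow of -1.03 on F0, -0.88 on F1 and -0.82 on F2, and the members were uneven. Of 8 cofactor genes measured 6 were detected, and 3 of these fell by limma. Meis1 lay at 7.73 on F0, 7.65 on F1 and 7.88 on F2, against 10.16 on chow, and fell by 2.40 ± 0.19 (limma, adjusted p = 0.0146). Meis2 lay at 8.13, 8.10 and 8.33 on the F0, F1 and F2 arrays, against 10.32 on chow, and fell by 2.13 ± 0.19 (limma, adjusted p = 0.0146). Pknox2 lay at 5.13, 5.45 and 5.53 on the F0, F1 and F2 arrays, against 7.01 on chow, and fell by 1.64 ± 0.27 (limma, adjusted p = 0.0364). Pbx2 was nearly level, at 6.58 on F0, 6.56 on F1 and 6.62 on F2, against 6.75 on chow, and Pknox1 was higher on the high fat arrays, at 6.36, 6.61 and 6.82, against 5.94. Meis3 lay at 5.07 on F0, 5.13 on F1 and 4.73 on F2, where it was not detected, against 4.89 on chow.

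**Figure D4:**
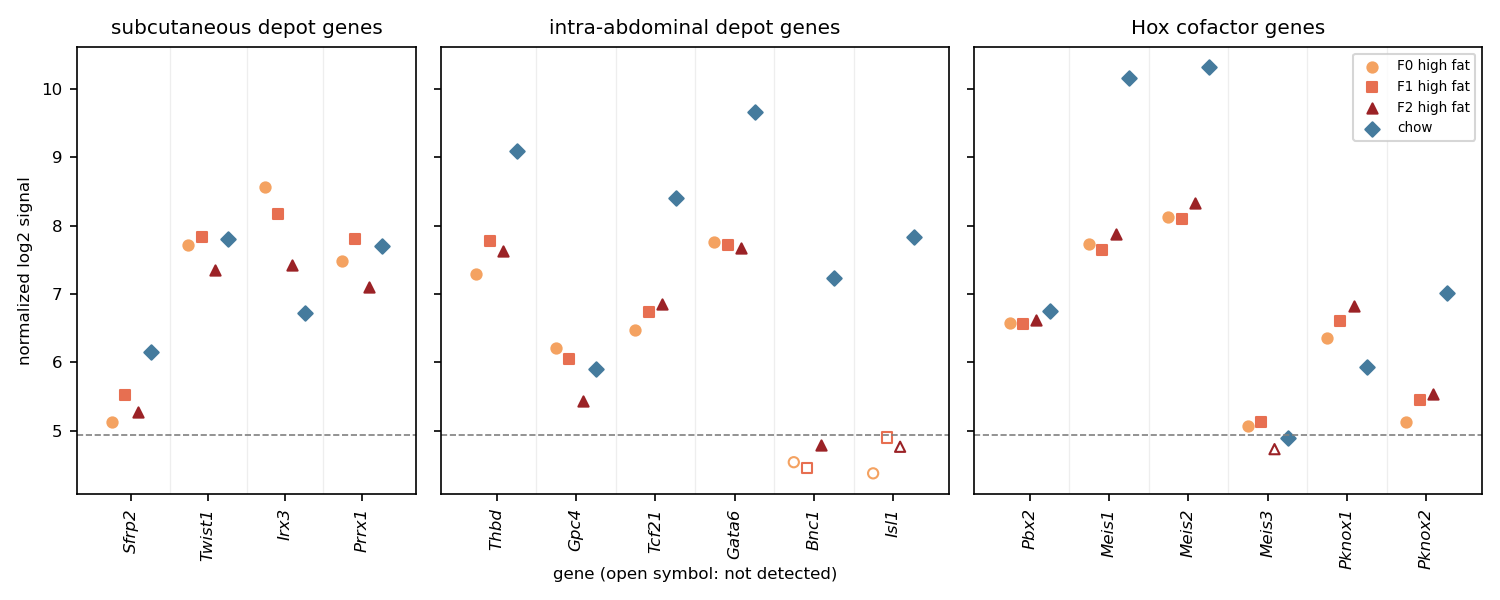
Normalized log2 signal of detected subcutaneous depot genes (4), intra-abdominal depot genes (6) and Hox cofactor genes (6) on the F0, F1 and F2 high fat arrays and the chow array. Open symbols mark genes not detected on that array and the dashed line lies at 4.94; Isl1, Bnc1, Gata6, Meis1 and Meis2 stand clearly apart on chow, while Irx3 is lowest there.

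Markers of other tissues also differed between chow and the high fat arrays. Their limma calls share the dependence on F1, without which 1 gene in all was called. Of the genes called as fallen, Lrrn4, Gpm6a, Pgr, Sprr2f, Ckm and Atp2a1 passed the detection filter through chow alone. Krt7, Krt18, Krt19, Tnnt3 and Bnc1 were detected on F2 and chow alone. For these genes the filter largely set the direction, and undetected signals lie near the detection limit. All 10 measured mesothelial markers, of the lining that covers visceral organs and fat, were detected on chow, against 4 on F0, 4 on F1 and 8 on F2. Their summed signal was 415 on F0, 714 on F1 and 942 on F2, against 5559 on chow, and 9 of the 10 fell by limma; Upk3b, a uroplakin gene, lay at 7.33, 8.40 and 8.98 on the F0, F1 and F2 arrays, against 11.65 on chow. Of 9 smooth muscle markers 6 fell, among them the enteric actin gene Actg2 at 8.92, 8.84 and 10.51, against 13.41 on chow, with a summed signal of 14629 on F0, 10958 on F1 and 13564 on F2, against 44162 on chow, and the actin-binding gene Synpo2, not detected on chow, was at least 4.89-fold, 3.48-fold and 1.91-fold higher on F0, F1 and F2. Of 14 oviduct and uterus markers 7 were detected on chow, 4 on F0, 5 on F1 and 4 on F2, with summed signals of 304, 286 and 297 on the high fat arrays and 1761 on chow. Within this list Msx1, a homeodomain factor of the uterus and limb, lay at 5.72 on F0, 5.77 on F1 and 5.65 on F2, against 8.78 on chow, and Wfdc2, an epithelial secretory gene, at 4.41, 5.55 and 5.95, against 9.33. The oestrogen and progesterone receptor genes Esr1 and Pgr fell as well (limma, adjusted p = 0.0283 and 0.0207), whereas the defining factors Pax8, Pax2, Emx2, Lhx1 and Wnt7a were detected on no array, and the oviduct glycoprotein gene Ovgp1 lay at 5.04, 5.0 and 4.75, against 5.23.

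Ovarian markers were near the detection limit, with 3 of 8 measured genes detected on chow, 1 on F0, 1 on F1 and 2 on F2, and the ovarian genes Amh, Zp3, Fshr and Star on no array. Skeletal muscle markers were detected for 10 of 15 genes on chow and for 5 on each high fat array, with summed signals of 4367, 3371 and 2690 on F0, F1 and F2, against 3881 on chow. On the high fat arrays the sums are mostly Acta1 and Pvalb; the list's medians were -2.63 on F0, -2.55 on F1 and -2.59 on F2, 6 of 10 genes were at least 2-fold lower on each high fat array, and these 6 fell by limma. Atp2a1, the calcium pump of fast muscle, lay at 4.50, 4.53 and 4.75 on the F0, F1 and F2 arrays, where it was not detected, against 8.94 on chow. The muscle lineage factors Myod1, Myog, Myf5, Myf6 and Pax7 were detected on no array. Of 7 brown fat genes detected, 2 fell by limma. Ucp1, the uncoupling protein gene, lay at 5.89 on F0, 5.40 on F1 and 4.71 on F2, against 8.37 on chow, and Cidea, a lipid droplet gene, at 6.91, 6.37 and 5.96, against 9.53. The list's median differences from chow were -0.58 on F0, -0.77 on F1 and -1.13 on F2. Ebf2, not called by limma, lay at 7.47, 7.36 and 6.57 on F0, F1 and F2, against 8.02 on chow. Cox7a1 was nearly level on F0 but lower on F2, at 9.09, 8.80 and 7.99, against 9.13 on chow. Lhx8 was detected on F0 alone, at 4.92 against 4.32 on chow. Zic1, a marker of interscapular brown fat, was detected on no array. Hepatocyte markers set F1 and F2 apart from F0, with median differences from chow over 9 genes of 0.13 on F0, 3.58 on F1 and 4.64 on F2, and limma called 0 of them. Ttr, the transthyretin gene, lay at 4.42 on F0, where it was not detected, 10.13 on F1 and 11.17 on F2, against 4.92 on chow. Apoa2, an apolipoprotein gene, lay at 5.11 on F0, 9.96 on F1 and 11.61 on F2, against 4.83 on chow. Cyp2e1 of the same list went the other way, at 12.25 on F0, 11.78 on F1 and 11.10 on F2, against 13.89 on chow. The list's summed signal was 5215 on F0, 7633 on F1 and 12487 on F2, against 15420 on chow, where it is mostly Cyp2e1. Alb, Fgb and Tat were detected on no array. Macrophage markers were higher on the high fat arrays, with a summed signal of 22752 on F0, 29150 on F1 and 36570 on F2, against 4042 on chow, and 6 of 9 rose by limma. The adipocyte sum was 70407 on F0, 63627 on F1 and 45336 on F2, against 44168 on chow, and the stromal progenitor sum 15677, 16945 and 18372, against 21541. The part of each of these cell types in the Hox differences was not tested. Depot and diet cannot be told apart from the chow array, since it is the only one of its group.

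**Figure D5:**
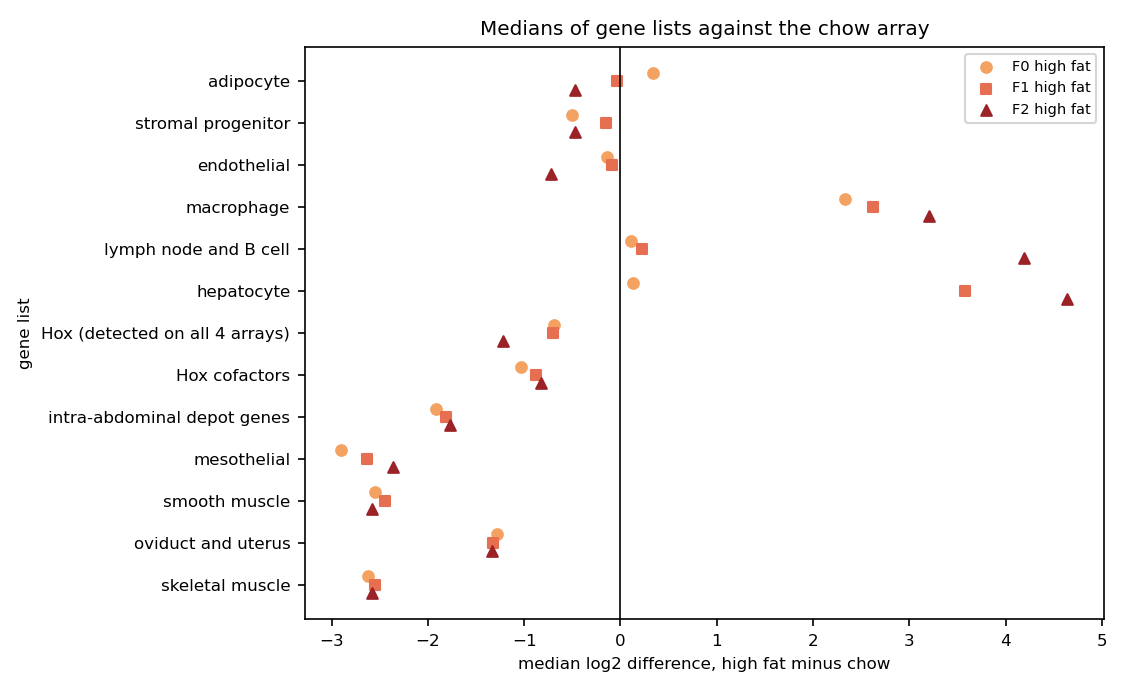
Median log2 difference of the F0, F1 and F2 high fat arrays from the chow array for 13 gene lists, with the 16 Hox genes detected on all 4 arrays in the middle row and 0 marked by a line. The Hox medians of -0.69, -0.70 and -1.22 lie below those of adipocyte, stromal and endothelial markers and above those of mesothelial and smooth muscle markers. The other lists are not limited in this way: they hold genes detected on at least 1 array, some of them on chow alone.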

How the data were processed

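Total RNA was extracted with RNAiso Plus, made into biotinylated cRNA with the Illumina TotalPrep kit and hybridised to 4 arrays, per the labels' protocols. GenomeStudio 2010.2 is the tool in the submitters' processing notes. The main deposited table gives an intensity on a linear scale, with an equal mean of 274 on each array, and a detection p-value per probe. A second deposited table holds background-subtracted intensity values with medians of 5.69, 5.60 and 6.24 for F0, F1 and F2 and 6.17 for chow. It is linear, not centred by probe, and served as an alternative, floored at 16; 0 columns of samples were left unused.

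Background was corrected with nec of limma 3.58.1 in R 4.3.3 (offset 16), with control signals inferred from the detection p-values, followed by quantile normalization and log2. A gene took the value of its brightest probe among those detected on at least 1 array, which left 11384 genes. The platform annotation gives 1 symbol for 34885 probes, several for 18 and none for 10378, and 34807 were matched by gene ID. A fold given as "at least" sets an undetected signal to the lowest detected one of its array. Limma (lmFit, eBayes with trend, two-sided, Benjamini-Hochberg at 0.05) compared 3 high fat arrays with 1 chow array. It was tested on simulated arrays with log2 differences of 2 and 4, and called 100 of 100 changed genes at each size, with 16 false calls. These sizes exceed the differences from chow of every member except Hoxd10. The simulation therefore does not cover smaller differences, nor generations that are not replicates. The lists and members were chosen with earlier results of these data known, and so were the motifs. Every member detected on at least 1 array is described. The rule for other lists allowed up to 6 genes a list at least 2-fold from chow, and genes that define the list. The text names only some of those it allowed, picked after their values were seen. Adipoq, Twist1, Prrx1, Gpc4, Pbx2, Pknox1, Meis3, Lhx8, Cox7a1, Synpo2, Ovgp1, Ezh2, Kmt2a, Aldh1a2, Cyp2e1, Pdgfrb and Lrrn4 were added in the same way. Summed signals add the normalized linear signals of a list's genes detected on at least 1 array.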

Additional observations from a re-analysis of the deposited data

How the results depend on the processing

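The counts of members at least 2-fold apart changed with the processing, and the cause was not tested. Without background correction, and likewise with an offset of 50, they were 1 for F0 and 2 for F1, and 0 members were apart for F2 against F0. Median scaling gave 8 for F0. The authors' value table gave 8 for F1, 1 for F2 against F1 and 2 for F2 against F0. A size of 1.5-fold gave 14 for F0, 14 for F1 and 18 for F2 against chow, 7 for F2 against F1 and 6 for F2 against F0. Members called by limma numbered 0 to 12 when 1 high fat array was left out. The authors' value table called Hoxa2, Hoxa3 and Hoxa9, with 2, 3 and 3 of their high fat signals at the floor, which leaves little or no spread. The counts of detected members stayed within 1.5 times under both alternatives run. The differences from chow of the 16 genes detected on all arrays were recomputed under the 7 planned settings of normalization, table, probe and filter. Of these 336 differences 335 kept their sign, and the exception was Hoxa13 for F2 with the authors' value table. A looser detection threshold or no filter leaves the signals of these genes unchanged, so their signs could not turn there. Averaging probes could alter only genes with several detected probes. With median scaling the Hox medians were -0.82, -0.82 and -1.20 for F0, F1 and F2. Raising undetected signals and requiring detection on both arrays were chosen after the data were seen and each gave 3 for F0, 4 for F1 and 10 for F2. No paired analysis was possible because each group is 1 array. Members near the lowest detected signal, such as Hoxa2, Hoxa3, Hoxa13, Hoxc8 and En1, are limited by signal over background.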

Other observations

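Genes of the chromatin proteins that keep Hox clusters silent or active were read as well. Of 20 Polycomb genes measured 17 were detected, with median log2 differences from chow of -0.39 on F0, -0.32 on F1 and -0.09 on F2, and limma called 0 of them. Ezh2, the methyltransferase of the complex, lay at 6.84 on F0, 7.03 on F1 and 7.51 on F2, against 6.53 on chow. Cbx6, a Polycomb reader, lay at 6.86 on F0, 7.01 on F1 and 7.59 on F2, against 8.02 on chow. Cbx7, of the same family, lay at 6.67 on F0, 6.26 on F1 and 7.42 on F2, against 7.51 on chow. All 12 trithorax-group genes were detected, with medians of -0.44, -0.34 and -0.13, and limma called 0. Kmt2a, the methyltransferase that maintains Hox expression, lay at 9.35 on F0, 9.31 on F1 and 10.23 on F2, against 9.99 on chow. Psip1, which tethers a trithorax complex to chromatin, lay at 7.58 on F0, 7.82 on F1 and 8.74 on F2, against 8.80 on chow. On the F2 array, where 15 of the 16 Hox genes detected on all arrays were lowest among the high fat arrays, these medians lay nearest to chow.

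Of 13 measured upstream regulators of axial identity 4 were detected. Aldh1a2, which makes retinoic acid, was detected on chow alone, at 4.37, 4.73 and 4.71 on F0, F1 and F2 and 5.54 on chow. The Cdx genes were detected on no array.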
